A study of Homo sapiens with 15 samples.

Results

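The genes described here encode subunits of respiratory chain complexes I, III and IV, measured in 3 sorted fractions of the human ovarian cancer line PEO1, which is long established in culture. The members are a list of 49 nuclear genes, of which 30 belong to complex I, 8 to complex III and 11 to complex IV. Of these, 45 were read by an array probe set that names 1 gene, among 19775 genes measured in all. NDUFS5, NDUFS8 and UQCRH were read only by probe sets that name several genes, and UQCRFS1 had no probe set listed with it in the annotation used, so these 4 were not analysed here. NDUFA4 is carried as a complex IV subunit, under which RefSeq now lists it as COXFA4. The cells were maintained in RPMI-1640 with 10% FBS and received no treatment before sorting. They were detached with trypsin, stained for the surface proteins CD90 and CD133 and with Sytox-blue, and sorted into cells without either protein (CD90-/CD133-), with CD90 alone (CD90+/CD133-) and with both (CD90+/CD133+). Each fraction was hybridized to 5 arrays (15 in all) that carry replicate numbers 1 to 5. The design text describes growth in triplicate, which does not match those numbers, codes in some labels end in an unexplained R, and replicates 4 and 5 share a code, so it is not settled that all 5 arrays of a fraction are independent. The methods speak of biological replicates for the CD90-/CD133- and CD90+/CD133- fractions, while for CD90+/CD133+ cells nothing says that the arrays came from separate cultures, so p-values there measure the spread between these arrays, which may be technical. All fractions come from 1 cell line, which limits what they can say of other cells.

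The respiratory chain passes electrons from NADH to oxygen across the inner mitochondrial membrane. Complex I oxidizes NADH and reduces ubiquinone, complex III passes electrons from ubiquinol to cytochrome c, and complex IV, cytochrome c oxidase, hands them to oxygen, and each of these steps is coupled to the pumping of protons that drive ATP synthase. The core subunits encoded by mitochondrial DNA are not on the list, which holds nuclear-encoded core subunits (such as NDUFS1, NDUFS3, NDUFV1, NDUFV2 and CYC1) and accessory subunits that surround and stabilize them. Nuclear factors such as NRF1, GABPA and YY1 are known to bind promoters of many of these genes.

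THY1, the gene of CD90, had intensities of 57.8 to 101.3 in CD90-/CD133- cells, 795.3 to 1221 in CD90+/CD133- cells and 728.5 to 2171 in CD90+/CD133+ cells. PROM1, the gene of CD133, had 9.32 to 44.1, 21.5 to 156.0 and 429.3 to 1652, so both follow the labels, and both were used for the sort. All 11 epithelial markers looked at averaged 100 or more, with a summed intensity of 42509 to 53429 on CD90-/CD133- arrays, 29665 to 39477 on CD90+/CD133- arrays and 27493 to 40515 on CD90+/CD133+ arrays. Of 10 fibroblast markers 2 reached 100 (COL1A1 and THY1), while COL1A2, COL3A1, DCN, LUM, PDGFRA, PDGFRB and POSTN stayed under 64 on every array. None of 8 leukocyte markers measured reached 100, with PTPRC, CD3E, CD3D, LYZ, MS4A1 and HLA-DRA under 64 on every array, and their summed intensity was 211.1 to 230.5, 238.9 to 299.2 and 241.1 to 330.0 in the same order of fractions. None of 6 endothelial markers reached 100. The part of these differences in the results below was not tested. In such bulk samples fewer cells of a type and less RNA per cell cannot be told apart.

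Some promoters of the members hold short sequences that the choice of genes did not use. Those of a few members that are described array by array are shown, because the factors that bind such sequences are known regulators of the pathway. RefSeq promoters (GRCh38.p14, 250 bases before to 50 after the gene's start) matched 40 of the 45 measured members. Each sequence is written on the gene's strand, with the match in capitals, as GCGCATG or its reverse complement CATGCGC (one arm of the NRF1 palindrome) or as CCGGAAG or its reverse complement CTTCCGG (a motif of ETS factors such as GABPA).
NDUFA8, chr9:122159767-122159793, minus strand: gttgccggatGCGCATGcgcaggcgcc
NDUFS6, chr5:1801351-1801377, plus strand: cagaagccgtGCGCATGcgttagcgct
COX6A1, chr12:120437886-120437912, plus strand: agggcacacgCATGCGCacgaaggaaa
COX6A1, chr12:120438087-120438113, plus strand: tccacttccgCTTCCGGcgctgcggca
NDUFS3, chr11:47578962-47578988, plus strand: ggaacctccgCTTCCGGctccacgtcc
On either strand, GCGCATG was found in 8 of the 40 member promoters (20%), against 4.67% of all 27305 promoters of the same length. CCGGAAG was found in 11 (27.5%), against 10.7% of all promoters. ATGGCGG, the core of a YY1 motif, was found in 13 (32.5%), against 5.72% of all promoters. ACGTG or GCGTG, the core of the hypoxia response element, was found in 21 (52.5%), against 48.4% of all promoters. In NDUFA8 the matches to GCGCATG on the 2 strands overlap, since the motif is one arm of a palindrome. ATGGCGG matches lay after the start of the gene in NDUFA6, NDUFA9, NDUFA13, NDUFS1, NDUFS3, NDUFS4, NDUFS6, NDUFS7, NDUFV2, UQCRC1, UQCR10 and COX6A1. The match in NDUFA7 and a further match in NDUFA13 lay before it. The first letters of ATGGCGG are those of a start codon, though the matches in NDUFS1 and NDUFV2 were on the opposite strand. GCGCATG was in 21.1% and CCGGAAG in 26.3% of the 19 promoters of members called in neither CD90+ fraction. They were in 16.7% and 25% of the 12 of members lower in CD90+/CD133- cells. Of the 9 of members higher in CD90+/CD133+ cells they were in 22.2% and 33.3%. In the same order of groups, ATGGCGG was in 21.1%, 50% and 33.3%, and ACGTG or GCGTG in 52.6%, 41.7% and 66.7%. Whether these shares differ was not tested. These are descriptions of the letters in the window and not of binding.

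Measured members had intensities from 381 (NDUFS7) to 11483 (COX7C), so none came near the value of 16 to which lower intensities were raised, and all 45 lie above the median gene by mean level (the brighter genes below). Within a fraction the SD of a member over its 5 arrays ran from 0.0447 to 0.350 on the log2 scale (median 0.133). CD90-/CD133- cells served as the control of both CD90+ fractions. The comparisons therefore share control arrays, and their values are set side by side without being counted as separate support.

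Respiratory chain genes did not move together in CD90+/CD133- cells. NDUFA9, UQCRC2, NDUFAB1 and NDUFS4 were lower (log2 fold change -0.74 to -0.59), while NDUFA5, NDUFB2, COX6A1 and NDUFS1 were higher (0.37 to 0.94). In all, 4 of 45 members were higher and 12 lower than in CD90-/CD133- cells (limma, Benjamini-Hochberg adjusted p under 0.05 over all genes), and 29 did not pass the test. These are 8.89% and 26.7% of the members. Of all 19775 genes, 9.05% were higher and 9.92% lower, and of the brighter genes, where the members lie, 15.7% were higher and 15.7% lower. The median log2 fold change of the members was -0.08, against 0 over all genes and -0.03 over the brighter genes. It was -0.03 without replicate 5 of CD90-/CD133- or of CD90+/CD133- cells, 0.00332 without both of these arrays, with 23 of 45 members above 0, and -0.12 without CD90-/CD133- replicate 1. With the mean of probe sets it was -0.05 and with probe sets without suffix -0.02, so the sign of this median rests on replicate 5. Complex I had 3 members higher and 6 lower of 28, complex III 0 and 3 of 6, and complex IV 1 and 3 of 11. The count of members lower was 4 with both arrays of replicate 4 left out, and 4 to 13 over all arrays or numbers left out. With the replicate number as a block, 4 members were higher and 13 lower, against 12% and 13.7% of all genes. Of the 9887 brighter genes, 2056 were higher and 2226 lower with the block.

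In CD90+/CD133+ cells more members were called higher than lower, by a margin that depended on the arrays and probe sets used. NDUFA5 and NDUFB2 were again higher (log2 fold change 0.99 and 0.80), together with COX6A1, NDUFB8 and NDUFV2, and NDUFA9 and UQCRC2 were the members furthest below CD90-/CD133- cells (-0.61 and -0.56). In all, 10 of 45 members were higher and 5 lower, and 30 did not pass the test, which makes 22.2% and 11.1% of the members. Of all genes, 9.49% were higher and 10.8% lower, and of the brighter genes 16.5% and 16.6%. The median of the members was 0.08, against 0 over all genes and -0.01 over the brighter genes, and 0.05 without CD90+/CD133+ replicate 3 or without both arrays of replicate 3. Complex I had 7 members higher and 4 lower of 28, complex III 1 and 1 of 6, and complex IV 2 and 0 of 11. The replicate number was also used as a block, which the arrays' shared deviations bear out. With it 17 members were higher and 6 lower, against 13% and 15.2% of all genes. Of the 9887 brighter genes, 2217 were higher and 2422 lower with the block. With both arrays of replicate 2 left out, 7 members were higher and 3 lower, and with both of replicate 3 left out 7 and 6. Probe sets without suffix gave 7 higher and 6 lower of 38 members, and the mean of probe sets gave 8 and 6 of 45. Without any overlap of the groups' intensities, 4 members lay above and 10 below CD90-/CD133- cells in CD90+/CD133- cells (7.7% and 8.31% of all genes). In CD90+/CD133+ cells 7 lay above and 5 below (8.02% and 8.81%). Of the 9887 brighter genes, 1304 lay above and 1299 below in CD90+/CD133- cells, and 1374 and 1313 in CD90+/CD133+ cells.

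**Figure D1:**
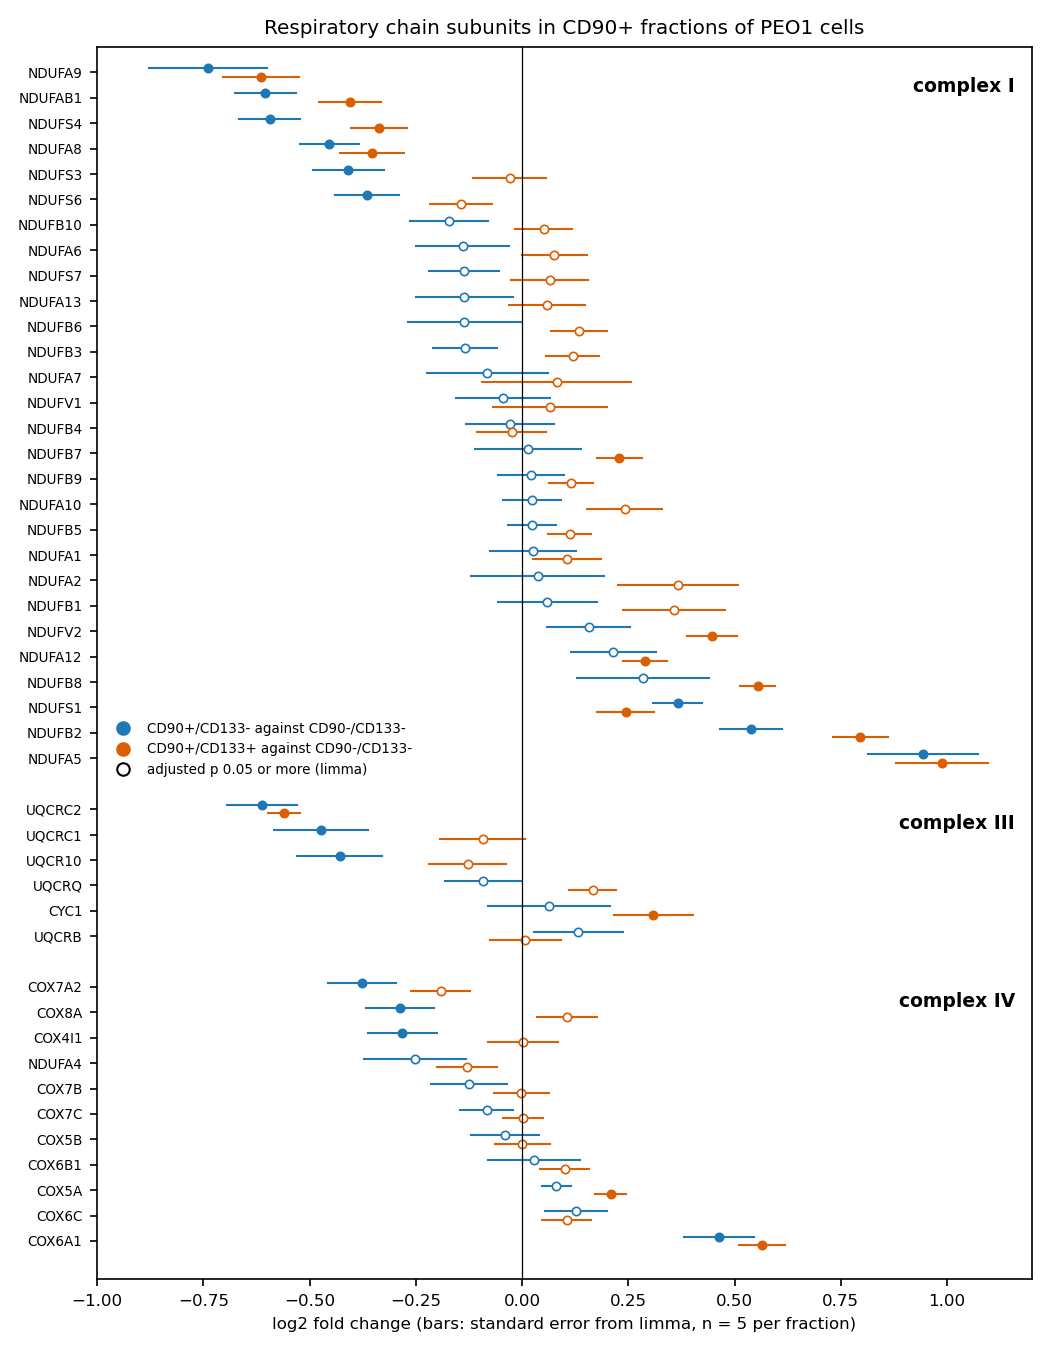
Log2 fold change of each of the 45 members (vertical axis, grouped by complex) in CD90+/CD133- cells (blue) and CD90+/CD133+ cells (orange) against CD90-/CD133- cells, with bars of 1 standard error from limma and filled points where adjusted p was under 0.05. Filled points lie on both sides of 0 in complex I, from -0.74 for NDUFA9 to 0.99 for NDUFA5, and most members stay near 0.

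Complex I held the largest changes in either direction. NDUFA9 and NDUFA5 belong to the arm that reduces ubiquinone. NDUFA9 read 1956, 1849, 1662, 1828 and 1437 in CD90-/CD133- replicates 1 to 5, 1281, 1089, 1111, 1016 and 774.4 in those of CD90+/CD133- cells and 1165, 1171, 1249, 1044 and 1054 in those of CD90+/CD133+ cells. All arrays of both CD90+ fractions lay below the lowest CD90-/CD133- array. By limma, NDUFA9 was 1.67-fold lower in CD90+/CD133- cells (log2 -0.74 with standard error 0.139, adjusted p = 0.00693) and 1.53-fold lower in CD90+/CD133+ cells (log2 -0.61 with standard error 0.0899, adjusted p = 0.00176). NDUFA5 read 1047, 1022, 1045, 949.5 and 808.7 in CD90-/CD133- replicates 1 to 5, 1722, 1992, 2283, 2002 and 1440 in those of CD90+/CD133- cells and 2096, 2310, 1641, 1799 and 1843 in those of CD90+/CD133+ cells. Here every CD90+ array lay above the highest CD90-/CD133- array, by a clear gap. By limma, NDUFA5 was 1.92-fold higher in CD90+/CD133- cells (log2 0.94 with standard error 0.130, adjusted p = 0.00149) and 1.98-fold higher in CD90+/CD133+ cells (log2 0.99 with standard error 0.109, adjusted p = 4.12e-04). NDUFA9 lost its call in CD90+/CD133- cells when both arrays of replicate 4 were left out, with a log2 fold change between -0.81 and -0.63 over all arrays or numbers left out.

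NDUFAB1 is the mitochondrial acyl carrier protein, which is also part of complex I. NDUFAB1 read 8235, 7405, 7620, 7155 and 7241 in CD90-/CD133- replicates 1 to 5, 5613, 4958, 5292, 4376 and 4605 in those of CD90+/CD133- cells and 6571, 5325, 6120, 5300 and 5215 in those of CD90+/CD133+ cells. The groups did not overlap with CD90-/CD133- cells in either CD90+ fraction. By limma, NDUFAB1 was 1.52-fold lower in CD90+/CD133- cells (log2 -0.60 with standard error 0.0725, adjusted p = 7.71e-04) and 1.32-fold lower in CD90+/CD133+ cells (log2 -0.40 with standard error 0.0741, adjusted p = 0.00541). NDUFS4, an accessory subunit of the NADH-oxidizing module whose loss causes complex I deficiency in people, was also lower. NDUFS4 read 1272, 1307, 1180, 1268 and 1263 in CD90-/CD133- replicates 1 to 5, 775.8, 918.2, 937.4, 824.1 and 729.6 in those of CD90+/CD133- cells and 1153, 968.9, 1037, 896.6 and 943.7 in those of CD90+/CD133+ cells. Every CD90+ array lay below the CD90-/CD133- arrays, with CD90+/CD133+ replicate 1 the nearest to them. By limma, NDUFS4 was 1.51-fold lower in CD90+/CD133- cells (log2 -0.59 with standard error 0.0716, adjusted p = 7.93e-04) and 1.26-fold lower in CD90+/CD133+ cells (log2 -0.34 with standard error 0.0654, adjusted p = 0.00736). NDUFA8 is an accessory subunit of the membrane arm, with the NRF1 motif shown above. NDUFA8 read 2152, 1941, 2093, 1772 and 2125 in CD90-/CD133- replicates 1 to 5, 1568, 1574, 1503, 1354 and 1359 in those of CD90+/CD133- cells and 1741, 1519, 1724, 1487 and 1430 in those of CD90+/CD133+ cells. The lowest CD90-/CD133- array, replicate 4, lay just above the highest CD90+ array. By limma, NDUFA8 was 1.37-fold lower in CD90+/CD133- cells (log2 -0.45 with standard error 0.0693, adjusted p = 0.00253) and 1.28-fold lower in CD90+/CD133+ cells (log2 -0.35 with standard error 0.0760, adjusted p = 0.0117). In CD90+/CD133+ cells the call of NDUFA8 was lost without the arrays of replicate 2 or of replicate 5 (log2 fold change -0.40 to -0.30 over all left out), and that of NDUFS4 without those of replicate 2 (-0.39 to -0.30).

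NDUFB2, a small accessory subunit of the membrane arm, was higher in both CD90+ fractions. NDUFB2 read 3393, 3387, 3594, 3364 and 3584 in CD90-/CD133- replicates 1 to 5, 4763, 5823, 5420, 4915 and 4375 in those of CD90+/CD133- cells and 5226, 6117, 6860, 5883 and 6086 in those of CD90+/CD133+ cells. No CD90+ array reached down to the CD90-/CD133- arrays. By limma, NDUFB2 was 1.45-fold higher in CD90+/CD133- cells (log2 0.54 with standard error 0.0732, adjusted p = 0.00139) and 1.74-fold higher in CD90+/CD133+ cells (log2 0.80 with standard error 0.0645, adjusted p = 8.68e-05). NDUFS1 is the largest core subunit of the module that oxidizes NADH and carries iron-sulfur clusters. NDUFS1 read 813.6, 857.6, 868.2, 775.4 and 835.5 in CD90-/CD133- replicates 1 to 5, 1123, 1113, 1076, 929.0 and 1119 in those of CD90+/CD133- cells and 1096, 1044, 933.3, 996.5 and 858.8 in those of CD90+/CD133+ cells. The CD90+/CD133- arrays lay above all control arrays, while CD90+/CD133+ replicate 5 lay inside their range. By limma, NDUFS1 was 1.29-fold higher in CD90+/CD133- cells (log2 0.37 with standard error 0.0579, adjusted p = 0.00303) and 1.18-fold higher in CD90+/CD133+ cells (log2 0.24 with standard error 0.0664, adjusted p = 0.0327). In CD90+/CD133+ cells the call of NDUFS1 was lost with the replicate block (adjusted p = 0.0694, limma), and also without any one of 7 of the 10 arrays (log2 fold change 0.20 to 0.29 over all left out). It held only with replicate 3 of CD90-/CD133- or replicate 3 or 5 of CD90+/CD133+ left out.

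**Figure D2:**
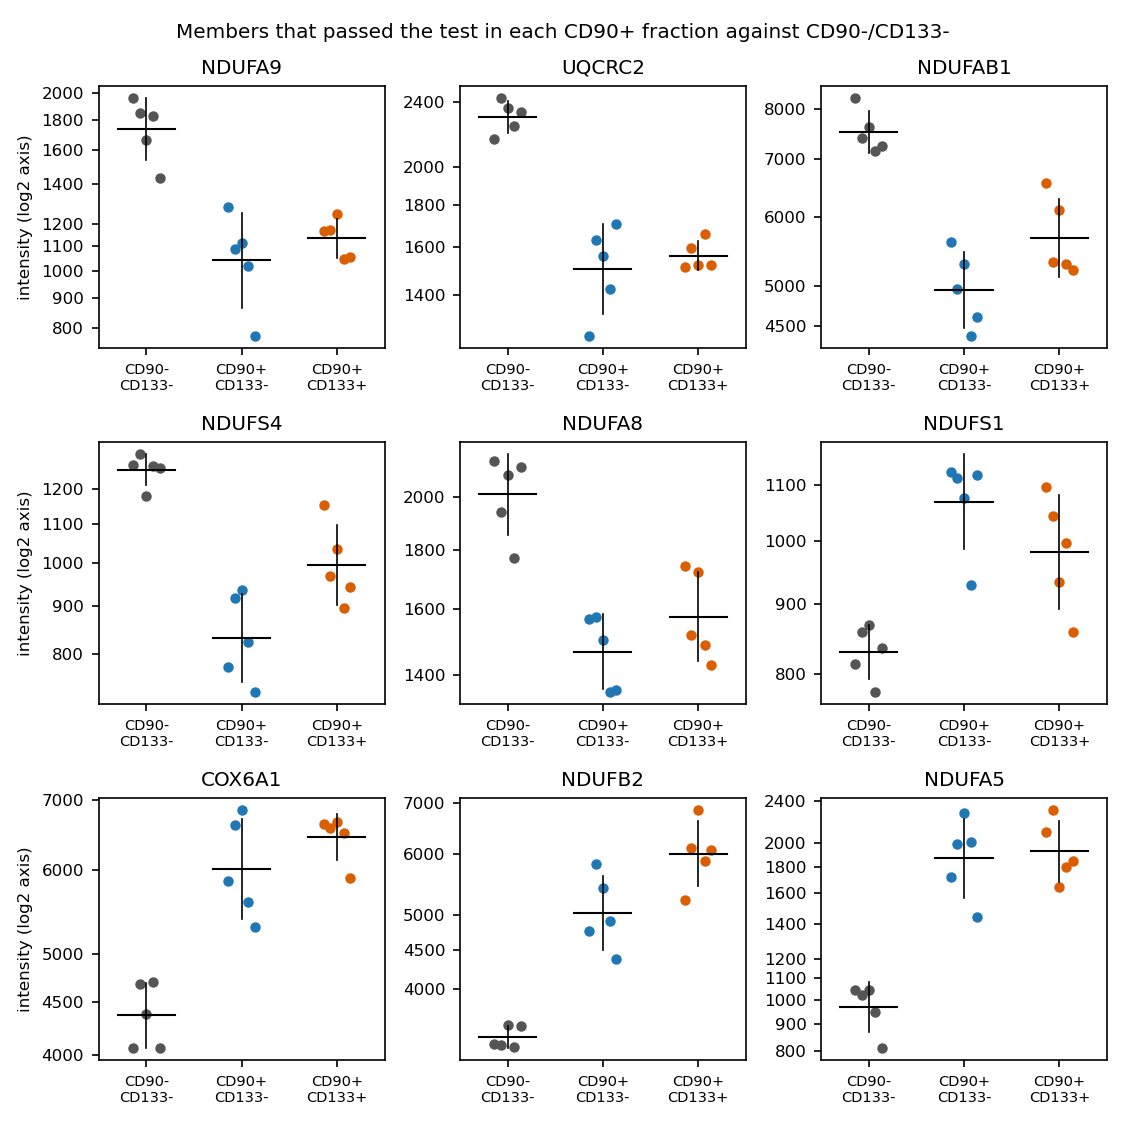
Intensity on each array (log2 axis) of the members that passed the test in each CD90+ fraction against CD90-/CD133- cells, with the 5 arrays of a fraction in replicate order, the mean of the log2 values (horizontal line) and 1 SD on that scale (vertical line). NDUFA9, UQCRC2, NDUFAB1, NDUFS4 and NDUFA8 lie lower and NDUFS1, COX6A1, NDUFB2 and NDUFA5 higher in the CD90+ fractions, and NDUFS1 is the one whose ranges overlap, in CD90+/CD133+ cells.

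Further complex I subunits passed the test in 1 of the comparisons only. NDUFS3, a core subunit of the ubiquinone-reducing arm, was lower in CD90+/CD133- cells. NDUFS3 read 1903, 1795, 1864, 1677 and 1673 in CD90-/CD133- replicates 1 to 5, 1390, 1561, 1399, 1246 and 1143 in those of CD90+/CD133- cells and 1825, 1702, 2087, 1660 and 1501 in those of CD90+/CD133+ cells. The CD90+/CD133- arrays lay below all CD90-/CD133- arrays, while the CD90+/CD133+ arrays covered the range of the CD90-/CD133- arrays. NDUFS3 was 1.33-fold lower in CD90+/CD133- cells (log2 -0.41 with standard error 0.0837, adjusted p = 0.0102, limma). NDUFS3 did not pass the test in CD90+/CD133+ cells, at a log2 fold change of -0.03 (adjusted p = 1, standard error 0.0854). The call in CD90+/CD133- cells was lost without the arrays of replicate 3 or of replicate 4 (log2 fold change -0.46 to -0.35 over all left out). NDUFS6, an accessory subunit that holds zinc, was also lower in CD90+/CD133- cells (by -0.37 on the log2 scale, standard error 0.0749, adjusted p = 0.0103, limma). NDUFS6 read 4247, 4475, 4938, 4491 and 4350 in CD90-/CD133- replicates 1 to 5, 3444, 4027, 3663, 3347 and 3040 in those of CD90+/CD133- cells and 3621, 3976, 4781, 3972 and 4071 in those of CD90+/CD133+ cells. The call was lost without both arrays of replicate 4 (-0.42 to -0.32 over all left out). In CD90+/CD133+ cells all 5 same-numbered arrays were lower (-0.14, adjusted p = 0.234), and NDUFS6 passed there with the replicate block (adjusted p = 0.0308, limma).

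NDUFB8, a membrane arm subunit often used as a marker of assembled complex I, was higher in CD90+/CD133+ cells. NDUFB8 read 1385, 1466, 1473, 1508 and 1352 in CD90-/CD133- replicates 1 to 5, 1943, 2128, 2092, 1573 and 1200 in those of CD90+/CD133- cells and 2168, 2134, 2212, 2084 and 1954 in those of CD90+/CD133+ cells. The CD90+/CD133+ arrays were close to each other and above all control arrays, while the CD90+/CD133- arrays were spread across both ranges. NDUFB8 was 1.47-fold higher in CD90+/CD133+ cells (log2 0.55 with standard error 0.0417, adjusted p = 6.13e-05, limma). NDUFB8 did not pass the test in CD90+/CD133- cells, at a log2 fold change of 0.28 (adjusted p = 0.282, standard error 0.155). NDUFV2 is a core subunit of the NADH-oxidizing module. NDUFV2 read 1723, 1745, 1818, 1618 and 1768 in CD90-/CD133- replicates 1 to 5, 1572, 2068, 2360, 1889 and 1858 in those of CD90+/CD133- cells and 2323, 2123, 2580, 2274 and 2544 in those of CD90+/CD133+ cells. It was above all control arrays in CD90+/CD133+ cells, and CD90+/CD133- replicate 1 was below them. NDUFV2 was 1.36-fold higher in CD90+/CD133+ cells (log2 0.45 with standard error 0.0578, adjusted p = 9.41e-04, limma). NDUFV2 did not pass the test in CD90+/CD133- cells, at a log2 fold change of 0.16 (adjusted p = 0.362, standard error 0.0977). NDUFA12 is an accessory subunit of the same module, and its CD90+/CD133+ arrays all lay above the control arrays. NDUFA12 read 3800, 3978, 3848, 3575 and 3359 in CD90-/CD133- replicates 1 to 5, 4479, 4577, 4955, 4297 and 3371 in those of CD90+/CD133- cells and 4709, 4556, 4772, 4240 and 4398 in those of CD90+/CD133+ cells. NDUFA12 was 1.22-fold higher in CD90+/CD133+ cells (log2 0.29 with standard error 0.0521, adjusted p = 0.00497, limma). NDUFA12 did not pass the test in CD90+/CD133- cells, at a log2 fold change of 0.21 (adjusted p = 0.202, standard error 0.101). NDUFB7, a membrane arm subunit, was higher in CD90+/CD133+ cells by 0.23 on the log2 scale (standard error 0.0520, adjusted p = 0.0148, limma), with 1 array inside the control range. NDUFB7 lost this call without both arrays of replicate 2 or of replicate 3 (0.19 to 0.27 over all left out), and with the mean of probe sets, with probe sets without suffix or with 1 fit of all 15 arrays.

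The remaining 15 complex I members passed in neither comparison. Their log2 fold changes ran from -0.17 (NDUFB10) to 0.06 (NDUFB1) in CD90+/CD133- cells and from -0.02 (NDUFB4) to 0.37 (NDUFA2) in CD90+/CD133+ cells. NDUFA2 and NDUFB1 had the largest of the values in CD90+/CD133+ cells. NDUFA2 read 1952, 2669, 2481, 2612 and 2596 in CD90-/CD133- replicates 1 to 5, 1997, 2904, 3355, 2217 and 2307 in those of CD90+/CD133- cells and 2374, 3148, 3916, 3090 and 3451 in those of CD90+/CD133+ cells. NDUFB1 read 2613, 3554, 3440, 3320 and 3548 in CD90-/CD133- replicates 1 to 5, 2774, 3634, 3976, 3471 and 3324 in those of CD90+/CD133- cells and 3299, 4172, 4483, 4479 and 4698 in those of CD90+/CD133+ cells. Both were higher in all 5 same-numbered pairs of CD90+/CD133+ and CD90-/CD133- arrays, although the groups overlapped, with replicate 1 the lowest array of each fraction. Their adjusted p in CD90+/CD133+ cells was 0.113 for NDUFA2 and 0.0724 for NDUFB1, and 0.0276 and 0.00370 with the replicate block (limma). NDUFB3, NDUFB5, NDUFB6 and NDUFB9 also passed there only with the block (log2 fold change 0.11 to 0.13). NDUFB3 was the member with opposite signs that passed with the block in each comparison. NDUFB3 read 1902, 2032, 1928, 1931 and 1643 in CD90-/CD133- replicates 1 to 5, 1680, 1866, 1862, 1695 and 1505 in those of CD90+/CD133- cells and 2047, 2123, 2089, 2119 and 1854 in those of CD90+/CD133+ cells. Its log2 fold change was -0.13 in CD90+/CD133- cells (adjusted p = 0.302, with the block 0.0198, limma) and 0.12 in CD90+/CD133+ cells (adjusted p = 0.246, with the block 0.0107).

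In complex III both core proteins and the small subunit UQCR10 were lower in CD90+/CD133- cells. UQCRC2, one of the core proteins, was lower in both CD90+ fractions. UQCRC2 read 2163, 2426, 2356, 2246 and 2332 in CD90-/CD133- replicates 1 to 5, 1250, 1635, 1564, 1425 and 1708 in those of CD90+/CD133- cells and 1515, 1599, 1523, 1660 and 1524 in those of CD90+/CD133+ cells. The CD90+/CD133+ arrays lay close together and all CD90+ arrays were well below the control arrays. By limma, UQCRC2 was 1.53-fold lower in CD90+/CD133- cells (log2 -0.61 with standard error 0.0830, adjusted p = 0.00139) and 1.47-fold lower in CD90+/CD133+ cells (log2 -0.56 with standard error 0.0376, adjusted p = 3.62e-05). UQCRC1, the other core protein, is related to mitochondrial processing peptidases. UQCRC1 read 665.2, 887.1, 676.7, 795.6 and 784.7 in CD90-/CD133- replicates 1 to 5, 614.6, 618.7, 482.9, 560.1 and 470.8 in those of CD90+/CD133- cells and 599.6, 693.1, 778.3, 745.9 and 748.7 in those of CD90+/CD133+ cells. Its CD90+/CD133- arrays lay just below the control arrays, and its CD90+/CD133+ arrays overlapped them. UQCRC1 was 1.39-fold lower in CD90+/CD133- cells (log2 -0.47 with standard error 0.111, adjusted p = 0.0190, limma). UQCRC1 did not pass the test in CD90+/CD133+ cells, at a log2 fold change of -0.09 (adjusted p = 0.661, standard error 0.0998). The call of UQCRC1 was lost without the arrays of replicate 3, 4 or 5 (log2 fold change -0.56 to -0.41 over all left out).

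UQCR10 is a small subunit of complex III. UQCR10 read 3023, 3512, 3097, 3292 and 3503 in CD90-/CD133- replicates 1 to 5, 1959, 2679, 2847, 2483 and 2307 in those of CD90+/CD133- cells and 2540, 2910, 3398, 2836 and 3414 in those of CD90+/CD133+ cells. Its CD90+/CD133- arrays all lay below the control arrays. UQCR10 was 1.35-fold lower in CD90+/CD133- cells (log2 -0.43 with standard error 0.101, adjusted p = 0.0188, limma). UQCR10 did not pass the test in CD90+/CD133+ cells, at a log2 fold change of -0.13 (adjusted p = 0.429, standard error 0.0905). The call in CD90+/CD133- cells was lost without CD90-/CD133- replicate 2 or without both arrays of replicate 2, 4 or 5 (-0.51 to -0.35 over all left out). CYC1, cytochrome c1, carries the heme that hands electrons to cytochrome c. CYC1 read 1662, 1420, 1469, 1387 and 1222 in CD90-/CD133- replicates 1 to 5, 1908, 1707, 1412, 1399 and 1139 in those of CD90+/CD133- cells and 2020, 1710, 1850, 1727 and 1553 in those of CD90+/CD133+ cells. Its CD90+/CD133+ value was higher than the control in all 5 same-numbered pairs, though the ranges overlapped. CYC1 was 1.24-fold higher in CD90+/CD133+ cells (log2 0.31 with standard error 0.0927, adjusted p = 0.0478, limma). CYC1 did not pass the test in CD90+/CD133- cells, at a log2 fold change of 0.06 (adjusted p = 0.959, standard error 0.143). The call in CD90+/CD133+ cells held only without CD90-/CD133- replicate 1 or CD90+/CD133+ replicate 5 and was lost without any one of the other 8 arrays (log2 fold change 0.25 to 0.36), while the replicate block gave an adjusted p of 9.37e-04. CYC1 also lost the call in 7 of 14 other settings, among them quantile normalization, median centring, probe sets without suffix, a floor of 64, 1 fit of all 15 arrays and the methods' t-test after adjustment. UQCRB, which helps bind ubiquinone, did not pass (0.13 and 0.01). UQCRQ, a small subunit, passed in CD90+/CD133+ cells with the replicate block only. UQCRQ read 2713, 3207, 2922, 3122 and 3100 in CD90-/CD133- replicates 1 to 5, 2745, 3268, 3130, 2695 and 2368 in those of CD90+/CD133- cells and 3110, 3491, 3595, 3407 and 3291 in those of CD90+/CD133+ cells. Its log2 fold change in CD90+/CD133+ cells was 0.17 (adjusted p = 0.0680, with the block 0.0314, limma), and -0.09 in CD90+/CD133- cells.

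In complex IV, COX6A1 was higher in the CD90+ fractions. It is the form of subunit VIa found outside heart and muscle, and its promoter holds the NRF1 and ETS motifs shown above. COX6A1 read 4063, 4672, 4380, 4692 and 4063 in CD90-/CD133- replicates 1 to 5, 5860, 6625, 6851, 5592 and 5297 in those of CD90+/CD133- cells and 6645, 6578, 6675, 6518 and 5899 in those of CD90+/CD133+ cells. All CD90+ arrays were above the control arrays. By limma, COX6A1 was 1.38-fold higher in CD90+/CD133- cells (log2 0.46 with standard error 0.0822, adjusted p = 0.00530) and 1.48-fold higher in CD90+/CD133+ cells (log2 0.56 with standard error 0.0550, adjusted p = 2.19e-04). COX7A2, the common form of subunit VIIa, was lower in CD90+/CD133- cells. COX7A2 read 3163, 3593, 3391, 3419 and 2884 in CD90-/CD133- replicates 1 to 5, 2672, 2628, 2804, 2226 and 2347 in those of CD90+/CD133- cells and 3084, 2846, 2719, 2655 and 3086 in those of CD90+/CD133+ cells. The CD90+/CD133- arrays all lay just below the control arrays, and the CD90+/CD133+ arrays overlapped them. COX7A2 was 1.30-fold lower in CD90+/CD133- cells (log2 -0.38 with standard error 0.0807, adjusted p = 0.0126, limma). COX7A2 did not pass the test in CD90+/CD133+ cells, at a log2 fold change of -0.19 (adjusted p = 0.0925, standard error 0.0692). The call of COX7A2 was lost without the arrays of replicate 2 or 4 (-0.42 to -0.32 over all left out). COX4I1, a regulatory subunit that binds ATP, and COX8A, the common form of subunit VIII, were also lower in CD90+/CD133- cells, at log2 fold changes of -0.28 (standard error 0.0811, adjusted p = 0.0432, limma) and -0.29 (standard error 0.0805, adjusted p = 0.0384). COX4I1 kept its call only without CD90-/CD133- replicate 1 or CD90+/CD133- replicate 2 and lost it without any one of the other 8 arrays (-0.33 to -0.23). It also lost the call with probe sets without suffix, a floor of 64 and the methods' t-test after adjustment. COX8A kept its call only with replicate 1 of CD90-/CD133- or replicate 2 or 5 of CD90+/CD133- left out and lost it without any one of the other 7 arrays (-0.35 to -0.22), and it lost the call with the replicate block (adjusted p = 0.0564). COX4I1 was at 0.00 and COX8A at 0.11 in CD90+/CD133+ cells.

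COX5A, which sits on the matrix side of complex IV, was higher in CD90+/CD133+ cells by 0.21 on the log2 scale (standard error 0.0365, adjusted p = 0.00437, limma), with all 5 arrays above the control arrays. In CD90+/CD133- cells its log2 fold change was 0.08 (adjusted p = 0.147). COX5B, COX6B1, COX6C, COX7B, COX7C and NDUFA4 passed in neither comparison, between -0.25 (NDUFA4) and 0.13 (COX6C) in CD90+/CD133- cells and between -0.13 and 0.10 in CD90+/CD133+ cells. NDUFA4 was lower in all 5 same-numbered pairs of CD90+/CD133- and CD90-/CD133- arrays. NDUFA4 read 2751, 3369, 3095, 2994 and 2668 in CD90-/CD133- replicates 1 to 5, 2202, 2935, 2766, 2705 and 1979 in those of CD90+/CD133- cells and 2782, 2872, 2735, 2750 and 2431 in those of CD90+/CD133+ cells. It passed in CD90+/CD133- cells with the replicate block only (adjusted p = 0.212, with the block 0.0295, limma). COX6B1 passed in CD90+/CD133+ cells with the block only (0.10, adjusted p = 0.00627 with the block).

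By the study's fold criterion of 1.5 between group averages, with no test, 1 member was higher and 4 lower in CD90+/CD133- cells. These stand beside 6.69% and 6.6% of all genes. In CD90+/CD133+ cells 2 were higher and 1 lower (5.91% and 6.79% of all genes). Of the 9887 brighter genes, 1100 were higher and 965 lower in CD90+/CD133- cells, and 998 and 930 in CD90+/CD133+ cells. The count of 5 in CD90+/CD133- cells was 3 with replicate 1 of CD90-/CD133-, replicate 1 of CD90+/CD133- or replicate 2 of CD90-/CD133- left out, and 2 without CD90+/CD133- replicate 4. NDUFAB1, NDUFS4 and UQCRC2 lie close to that fold, at 1.52, 1.51 and 1.53 by the fitted values.

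CD90+/CD133+ cells were then compared with CD90+/CD133- cells directly, which is the test of whether the CD90+ fractions differ. No member passed (limma, 0 of 45, and 0.0506% of all genes), nor with the replicate block (0.0202% of all genes higher and 0.0202% lower). At an unadjusted p under 0.05 there were 16 members, against 11.9% of all genes and 1775 of the 9887 brighter genes. The methods' t-test gave 16 members as well. Their number was 8 without CD90+/CD133- replicate 5, 9 without CD90+/CD133+ replicate 3, 8 without both arrays of replicate 4 and 9 without both of replicate 5. The direction was shared: 42 of 45 members were higher in CD90+/CD133+ cells, with a median log2 fold change of 0.19. Of all genes 41.7% were higher (8240, with 7936 lower and the others at 0, median 0). Of the brighter genes, where the members lie, 50.3% were higher (median 0.00). The members that were lower were NDUFS1, UQCRB and COX6C, at -0.12, -0.12 and -0.02. The median was 0.13 without CD90+/CD133- replicate 5 and also with the mean of probe sets, 0.12 with probe sets without suffix and 0.125 without both arrays of replicate 5, where 38 members were higher. With quantile normalization 41 members and with median centring 43 were higher. Genes on a common array are not independent, and no p is given for the list.

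The largest of these differences, in COX8A, NDUFS3 and UQCRC1, were in subunits that had been called lower in CD90+/CD133- cells. NDUFA2 came next, at 0.33, and had not been lower there (log2 fold change 0.04). Both comparisons use the same CD90+/CD133- arrays, so low values there enter both, and the overlap is not separate support. COX8A differed by 0.39 on the log2 scale (95% interval 0.17 to 0.62, adjusted p = 0.174, limma). COX8A read 5325, 5823, 5591, 5928 and 5856 in CD90-/CD133- replicates 1 to 5, 4490, 5535, 4696, 4803 and 3966 in those of CD90+/CD133- cells and 5313, 6363, 7037, 5885 and 6201 in those of CD90+/CD133+ cells. The CD90+/CD133+ array was higher than the CD90+/CD133- array in all 5 same-numbered pairs, and the ranges overlapped. NDUFS3 differed by 0.38 (0.13 to 0.63, adjusted p = 0.208) and UQCRC1 by 0.38 (0.14 to 0.62, adjusted p = 0.198). For members that were higher in each CD90+ fraction the difference was 0.04 (-0.27 to 0.36) for NDUFA5, 0.10 (-0.07 to 0.28) for COX6A1 and 0.26 (0.04 to 0.47, adjusted p = 0.318) for NDUFB2. Of those that were lower in each, UQCRC2 differed by 0.05 (-0.14 to 0.24) and NDUFA9 by 0.12 (-0.16 to 0.41). These intervals come from the fit without the replicate block and so take no account of the pairing. They leave room for differences of either sign in NDUFA5, COX6A1, UQCRC2 and NDUFA9.

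Array by array, the median deviation of all 45 members from their own means over the 15 arrays ran from 0.02 to 0.17 (log2) over the CD90+/CD133+ arrays and from -0.13 to 0.07 over the CD90-/CD133- arrays. On the CD90+/CD133- arrays it ran from -0.29 (replicate 5) to 0.09 (replicate 2). Complex III was the lowest of the complexes in CD90+/CD133- cells, at a median of -0.14 over the arrays (lowest -0.35), against 0.12 in CD90-/CD133- cells and 0.07 in CD90+/CD133+ cells. Complex I had medians of -0.01, -0.07 and 0.11, and complex IV of 0.03, -0.04 and 0.08, in the order CD90-/CD133-, CD90+/CD133- and CD90+/CD133+.

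**Figure D3:**
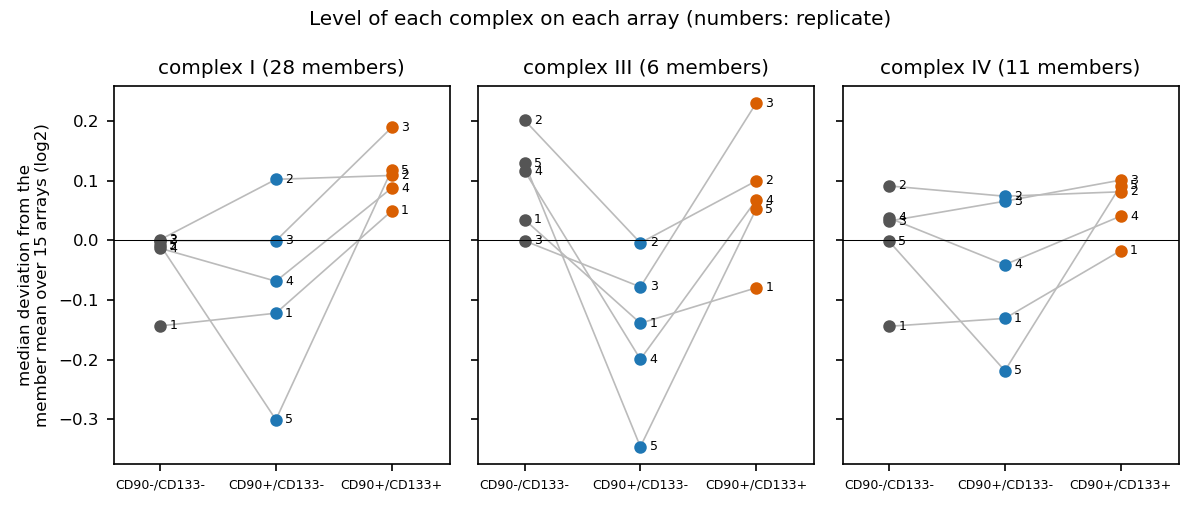
Median deviation (log2) of the members of complex I, III and IV from their means over 15 arrays, 1 point per array with its replicate number, and grey lines between arrays of the same number. CD90+/CD133- replicate 5 is the lowest array in each complex (-0.30, -0.35 and -0.22), and all 5 CD90+/CD133+ arrays lie above 0 in complex I.

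The means of a measure of RNA quality also differed between these fractions, though no difference passed 0.05 after adjustment. The log2 gap between the 3-prime and 5-prime control probe sets of GAPDH was 0.0565 ± 0.0317 in CD90-/CD133- cells, 0.186 ± 0.0789 in CD90+/CD133- cells and 0.0498 ± 0.0408 in CD90+/CD133+ cells (SD, n = 5 each), and a wider gap goes with RNA that is more degraded or less completely copied. The 2-sided exact permutation p was 0.0159 for CD90+/CD133- against CD90-/CD133- cells, 0.833 for CD90+/CD133+ against CD90-/CD133- cells and 0.0238 for CD90+/CD133+ against CD90+/CD133- cells (0.0714, 0.833 and 0.0714 adjusted over 6 tests). The gap of ACTB was 1.84 ± 0.322, 2.46 ± 0.564 and 1.70 ± 0.662 in the same order (SD, n = 5 each). Its exact permutation p was 0.0714, 0.659 and 0.0952 for the same comparisons (0.143, 0.790 and 0.143 adjusted). These permutations ran over all arrays of the fractions compared and took no account of replicate numbers. The part of RNA quality in the members' lower values in CD90+/CD133- cells was not tested.

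Called members were set beside their neighbours on the chromosome. For each member the median log2 fold change of the 30 nearest expressed genes on its chromosome was set against that of all expressed genes (-0.03 for CD90+/CD133- cells, -0.01 for CD90+/CD133+ cells). In CD90+/CD133- cells all 16 called members lay on the same side as their neighbours, as did 22 of 29 members that were not called, 82.2% of all called expressed genes and 63.6% of the other expressed genes. For CD90+/CD133+ cells this held in all 15 called members, 21 of 30 not called, 79.4% and 62.5%. The side of a median does not say that the neighbours moved. NDUFA8 had 1 of 30 neighbours called higher and 2 lower in CD90+/CD133- cells, and NDUFB7 had 3 higher and 3 lower in CD90+/CD133+ cells (median 0.02). Neighbouring genes share their neighbours, so these shares are descriptions.

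NDUFB2 on chromosome 7 had neighbours with a median of 0.52 in CD90+/CD133- cells, 17 of the 30 higher and 1 lower, close to its own 0.54. COX6A1 on chromosome 12 had 22 of 30 neighbours higher and none lower, with a median of 0.66, above its own 0.46. NDUFA9, on the same chromosome, had 11 of 30 lower and none higher, with a median of -0.44 against its own -0.74. UQCRC2 and NDUFAB1 on chromosome 16 are among each other's nearest expressed genes, and each had 15 of 30 neighbours lower and none higher (median -0.43 for both). NDUFA5 on chromosome 7 exceeded its neighbours (median 0.39, against its own 0.94), and NDUFS4 on chromosome 5 lay far below neighbours of both directions (median -0.05, 5 higher and 7 lower). In CD90+/CD133+ cells NDUFB8 on chromosome 10 had 18 of 30 neighbours higher (median 0.48, own 0.55) and NDUFV2 on chromosome 18 had 16 of 30 (median 0.49, own 0.45). Whether a member exceeded its neighbours was not tested.

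**Figure D4:**
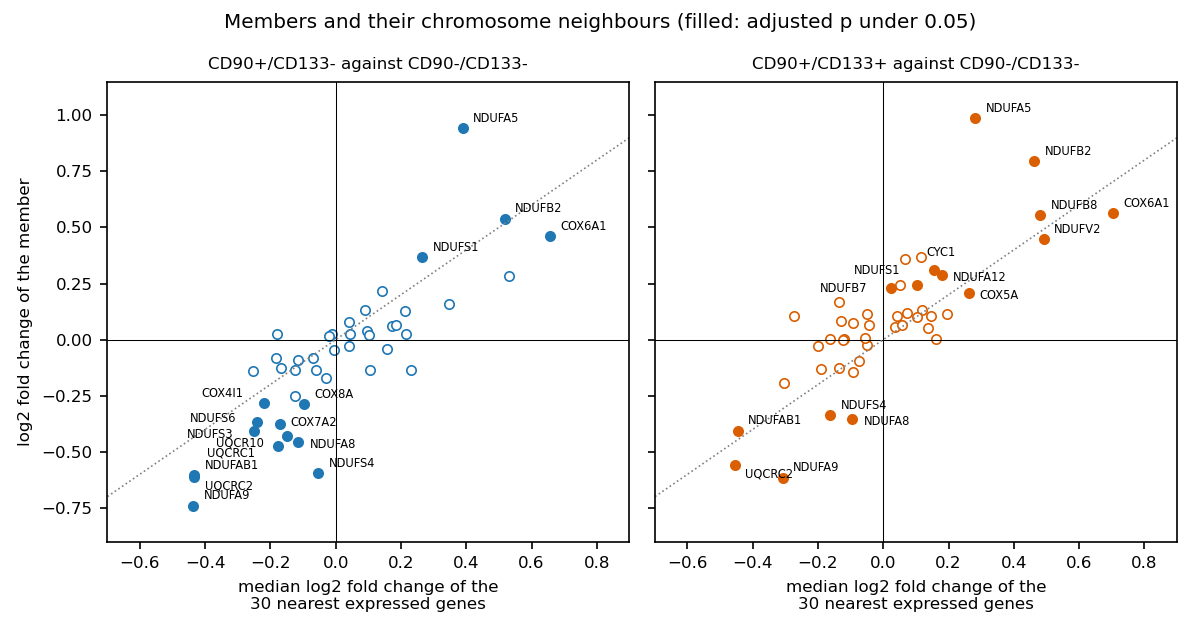
Log2 fold change of each member (vertical) against the median log2 fold change of its 30 nearest expressed genes on the chromosome (horizontal), in CD90+/CD133- (left) and CD90+/CD133+ cells (right) against CD90-/CD133- cells, with the line of equality dotted and called members filled and named. Called members lie in the lower left and upper right, with NDUFA5 well above the line in both panels and COX6A1 below it.

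Of the 45 members, 20 were read by 1 probe set and 25 by several (87 probe sets in all), and for 24 the probe set used carries a suffix that marks probes shared with other transcripts. Among called members, 6 further probe sets of 5 members with a mean of 64 or more could be compared in CD90+/CD133- cells, and 6 of 5 members in CD90+/CD133+ cells. None had the opposite direction, and only direction was compared. A further probe set of COX4I1, with a mean of 2970, was at -0.18 in CD90+/CD133- cells. Its adjusted p was 0.196 in a limma fit over all single-gene probe sets, where the one used had 0.0528.

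Other genes of the pathway were read from lists of further subunits, complex II, assembly factors and regulators of mitochondrial biogenesis. Their counts stand beside 9.05% of all genes higher and 9.92% lower in CD90+/CD133- cells and 9.49% and 10.8% in CD90+/CD133+ cells (15.7% to 16.6% of the brighter genes). Several of the counts lie near those shares. Complex II, succinate dehydrogenase, passes electrons from succinate to ubiquinone without pumping protons. Of its 7 measured subunits and assembly factors, 1 was higher and 3 were lower in CD90+/CD133- cells. SDHC, a membrane anchor of the enzyme, fell from a mean intensity of 2277 to 1066 (-1.09 on the log2 scale with standard error 0.0834, adjusted p = 9.27e-05, limma) and was also lower in CD90+/CD133+ cells (1388, -0.71, adjusted p = 7.22e-04), the only one of the 7 called there (2 with the replicate block). SDHAF2, which attaches FAD to the enzyme, was lower in CD90+/CD133- cells (-0.60, adjusted p = 9.96e-05), as was the assembly factor SDHAF1 (-0.25, adjusted p = 0.0403, with the replicate block 0.117). SDHD, the other membrane anchor, was higher there (0.20, adjusted p = 0.0276).

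Of 16 complex I assembly factors, 0 were higher and 4 lower in CD90+/CD133- cells, and 0 and 3 in CD90+/CD133+ cells (25% and 18.8% of the list lower). With the replicate block these were 1 higher and 6 lower, and 1 and 5. NDUFAF5, which modifies a core subunit, had a log2 fold change of -0.85 in CD90+/CD133- cells (adjusted p = 0.0167, limma) and -0.61 in CD90+/CD133+ cells (0.0313). COA1 followed at -0.63 in CD90+/CD133- cells (adjusted p = 0.00630), with TMEM186 at -0.47 (9.34e-04) and TMEM126B at -0.44 (0.0116), and TMEM186 and TMEM126B were the others called in CD90+/CD133+ cells (-0.22 and -0.38). Of 6 complex III assembly factors, UQCC1 was lower in both (-0.66 and -0.41, adjusted p = 0.00559 and 0.00627), and LYRM7 was higher in CD90+/CD133+ cells (0.43, adjusted p = 0.00559).

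Of 21 complex IV assembly factors, 2 were higher and 6 lower in CD90+/CD133- cells, and 1 and 2 in CD90+/CD133+ cells (9.52% and 28.6% of the list, and 4.76% and 9.52%). With the replicate block these were 4 and 6, and 2 and 6. COA3, which stabilizes newly made COX1, was lower in both (-0.81 and -0.58, adjusted p = 1.28e-04 and 0.00192, limma). SCO1, which delivers copper, was lower as well (-0.59 and -0.36, adjusted p = 0.00857 and 0.0192). TACO1, a translational activator of COX1, was lower in CD90+/CD133- cells (-0.53, adjusted p = 0.0280). LRPPRC, which stabilizes mitochondrial mRNAs, was higher in both (0.57 and 0.25, adjusted p = 0.00108 and 0.0173). Of 15 other subunits and isoforms, NDUFA11 was lower in CD90+/CD133- cells (-0.54, adjusted p = 0.00594), and NDUFA3 and COX7A2L were higher in CD90+/CD133+ cells (0.28 and 0.26, adjusted p = 0.0471 and 0.0212).

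Of 14 regulators of mitochondrial biogenesis, 4 were higher and 0 lower in CD90+/CD133- cells (median log2 fold change 0.25), and 2 were higher and 1 lower in CD90+/CD133+ cells (median 0.03), or 28.6% higher in the first and 14.3% in the second. With the replicate block these were 5 and 1, and 6 and 2. The coactivator PPRC1 was at 0.63 and 0.49 (adjusted p = 0.0164 and 0.00916, limma). TFAM, which packages and transcribes mitochondrial DNA, was at 0.27 and 0.51 (adjusted p = 0.0333 and 0.00135). POLG, the mitochondrial DNA polymerase, and YY1 were higher in CD90+/CD133- cells (0.62 and 0.25, adjusted p = 0.00503 and 0.0132), and the transcription factor TFB2M was lower in CD90+/CD133+ cells (-0.60, adjusted p = 0.0131). None of the genes of these 6 lists passed in the direct comparison of the CD90+ fractions.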

How the data were processed

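RNA of 15 samples (3 sorted PEO1 fractions, 5 arrays each) was hybridized by the authors to whole-genome arrays (Affymetrix U133 Plus 2.0). The deposited table holds 1 linear intensity for each probe set and array, after the authors' cross-correlation normalization. Array medians ran from 29.4 to 32.4, and 32.7% to 34.5% of probe sets were under 16. The software that summarised the probes is not given in the sources used here. No probe counts are given, so the number of arrays limits the precision.

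Values under 16 were set to 16, log2 was taken, and each gene was read from the brightest of its probe sets that name 1 gene (41091 of 54675 probe sets, 19775 genes). Each pair of fractions was compared on its 10 arrays with limma 3.58.1 in R 4.3.3 (functions lmFit and eBayes), with 2-sided tests adjusted over all genes by Benjamini-Hochberg and called at an adjusted p under 0.05. The 45 measured members were read out, with complexes and other lists described by counts and medians. The members, lists and tests were chosen with earlier results of these data known. Values on every array are given for up to 12 called members per comparison with the largest change and up to 4 called only with the block, and up to 4 called genes are named of each other list. COX8A was given array by array after its values were seen. Data were simulated from CD90+/CD133- and CD90-/CD133- arrays over 19775 genes with 200 changed. The fit called 76% of the 2-fold changes and 95% of the 4-fold changes, with 6.04% false calls. No member changed by 2-fold or more, so these rates do not give the recovery of changes of the size reported here. Far more genes, 3751, were called in CD90+/CD133- against CD90-/CD133- cells, and the false calls with that many were not tested.

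Arrays of the same replicate number deviated together from their fraction means (correlations 0.142 to 0.799 in all 15 pairs, mean of -0.103 between different numbers, highest 0.346). The pairing rests on this check and on label codes common to the arrays of a number. No arrays held identical values. Expressed genes were those with a mean of 64 or more. Alternatives were median centring, quantile normalization, probe sets without suffix, the mean of probe sets, no floor or a floor of 64, the brighter genes only, an intensity trend, 1 fit of all 15 arrays, a block of replicate number or of label code, the arrays of label code 289 alone, the methods' t-test, and leaving out each array or number. Gene order and promoters are RefSeq's (GRCh38.p14). The arrays name no build, so no gene coordinates are given beside those of promoter windows.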

Additional observations from a re-analysis of the deposited data

Results flagged for a closer look

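Of 66 sets of 5 arrays tested for called members, 2 held an array far from the other 4, where chance flags about 1 in 20. COX6A1 on CD90+/CD133+ replicate 5 read 5899, against 6518 to 6675 on the other CD90+/CD133+ arrays (gap over range 0.807), and remained above the highest CD90-/CD133- array. NDUFS1 on CD90+/CD133- replicate 4 read 929.0, against 1076 to 1123 on the other CD90+/CD133- arrays (gap over range 0.772).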

How the results depend on the processing

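Of the values of called members under the alternatives, 785 kept their direction and their side of the threshold, 112 kept their direction and lost the threshold, and none reversed. The floors, the brighter genes only, the intensity trend, the fit of all arrays, the blocks and the t-test leave a member's log2 fold change unchanged. Direction could not reverse in these settings, so the tally does not measure how firm the calls are. With the arrays of label code 289 alone (2 per fraction), 0 members were higher and 0 lower in either comparison with CD90-/CD133- cells by limma. There 15 members passed an unadjusted p under 0.05 for CD90+/CD133- cells and 17 for CD90+/CD133+ cells, and 1 and 38 of all genes were called, from fewer arrays. The replicate block gave 17 members higher in CD90+/CD133+ cells (10 without it), and in CD90+/CD133- cells it moved no count by over 1.5 times. Members past 1.5-fold in CD90+/CD133- cells (5) were 2 with the mean of probe sets and 0 at a 2-fold threshold. Those in CD90+/CD133+ cells (3) were 5 with median centring, 1 with the mean of probe sets, 5 with probe sets without suffix and 0 at 2-fold. For CD90+/CD133+ against CD90+/CD133- cells, the methods' t-test without adjustment gave 16 members higher. The cause of these moves was not tested. Leaving out arrays or numbers gave 4 to 6 members higher and 4 to 13 lower in CD90+/CD133- cells (2 to 5 past 1.5-fold), 7 to 14 higher and 3 to 6 lower in CD90+/CD133+ cells (2 to 4 past 1.5-fold), and 0 in the comparison of the CD90+ fractions. With each left out in turn, 8 of 16 calls in CD90+/CD133- cells (NDUFA5, UQCRC2, NDUFAB1, NDUFS4, NDUFB2, COX6A1, NDUFA8 and NDUFS1) and 10 of 15 in CD90+/CD133+ cells were kept.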
